A study of Mus musculus with 12 samples.

Results

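The genes described here carry out the mechanics of cell division: they build the spindle and the kinetochore, guard the spindle checkpoint, compact and separate chromosomes, and divide the cell. They are the 39 genes, of 20540 in the deposited expression table, whose symbols appear in a named list of checkpoint, kinetochore, chromosome passenger, condensin, spindle and cytokinesis genes; cyclins and the other kinesin motors are not on it. The list was drawn up by function and its rule uses no measured value, but it was chosen with earlier results of these data known. All 39 were found by symbol, and all 39 passed the filter on low values in each comparison.

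RNA was sequenced from mouse oligodendrocyte progenitor cells (OPCs), the glial precursors of myelinating oligodendrocytes, taken at postnatal day 6 to 7 from the brain of C57BL/6 mice. All cells were kept proliferating in medium labelled SATO+PDGFRA and received a synthetic, biotin-tagged microRNA mimic, which was either a control mimic or miR-27a. RNA was taken either from the whole transfected cells or after a pulldown on the tag, so that the 4 groups of 3 libraries are whole-cell control, whole-cell miR-27a, pulldown control and pulldown miR-27a. No group was free of mimic. What the control mimic's sequence was, and whether replicates were separate cultures or animals, the sources used here do not say, and p-values therefore reflect a spread between libraries that may be technical.

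A microRNA pairs through its seed, bases 2 to 8 of the mature strand, with sites in the 3′ untranslated region of an mRNA, and the usual outcome is less of that mRNA. Transcripts of the mitotic machinery accumulate in G2 and mitosis and are low in cells that have left the cycle. OPCs divide in the postnatal brain, and they stop dividing as they differentiate into oligodendrocytes. Many of these genes are repressed outside G2 and M by the MuvB complex, which binds a promoter element called the CHR, and are activated by NF-Y at CCAAT boxes.

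The mature mouse strand of miR-27a (RefSeq, GRCm38.p6, chromosome 8, 84208727 to 84208747, plus strand) is printed with its seed in capitals, because the sites below are defined by it.
mmu-miR-27a-3p: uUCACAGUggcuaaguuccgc
Matching sites were the 8mer ACTGTGAA and the 7mers ACTGTGA and CTGTGAA, searched on the sense strand of the longest 3′ untranslated region annotated in GENCODE M21 (GRCm38). They were found in 9 of the 39 genes, or 23.1%, against 30.0% of 15547 genes with such a region. Spc24 and Ncapd2 held the 8mer, and Mad2l1, Ndc80, Birc5, Aurka, Nek2, Ect2 and Racgap1 held a 7mer. Both 8mers and the 7mer of Ndc80, to which the pulldown results return, are shown with the site in capitals.
Spc24: acccgccctcgcACTGTGAAggcagagg
Ncapd2: atgctcagtgccACTGTGAAgatcatcc
Ndc80: ctaatgcaggtcCTGTGAAgaagagcc
The other genes on the list held none of these sites in that region.

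The libraries held 15548418 to 24972188 reads assigned to genes. The first principal component of all tested genes separated pulldown from whole-cell libraries (65.3% of the variance) and the second separated the mimics (14.4%), while the third (5.4%) set replicate 2 of pulldown miR-27a apart. All 5 OPC markers checked (Pdgfra, Cspg4, Olig1, Olig2, Sox10) were present in whole-cell control RNA, from 19.4 CPM for Cspg4 to 554 CPM for Pdgfra. CPM is a gene's read count scaled to the size of the library, here as set by the authors. Markers of other brain cells were present as well. Mature oligodendrocyte markers (Mbp, Mag, Mog, Mobp) summed to 3404 to 3860 CPM and the 5 astrocyte markers (Gfap, Aqp4, Aldh1l1, Slc1a2, Slc1a3) to 7012 to 7026 CPM in whole-cell control libraries. Neuronal markers (Rbfox3, Syt1, Snap25, Tubb3, Stmn2) summed to 148 to 169.6 CPM there. Microglial markers summed to 11.7 to 13.3 CPM there, endothelial ones to 6.92 to 7.21 and mural and fibroblast ones to 26.0 to 27.7.

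Under miR-27a mimic, most of the division genes were more abundant in whole-cell RNA. Of the 39, 34 rose and none fell, while of all 13393 genes tested 13.0% rose and 1599 genes fell. The median log2 difference was 0.54, against 0.01 for all genes tested, and single genes ran from 0.01 for Pttg1 to 0.84 for Cenpa. Together the 39 genes took 2902 to 2986 CPM in the 3 control libraries and 3923 to 4057 CPM in the 3 miR-27a libraries. For 36 of the 39, every miR-27a library was above every control library, where 20.3% of all genes tested showed that order. Bub3, Hmgb2, Ckap5, Pttg1 and Espl1 did not pass the test. Differences are on the log2(CPM + 1) scale, miR-27a minus control, and were tested with limma with Benjamini-Hochberg adjustment over all genes tested at 0.05.

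In pulldown RNA the differences ran in the same direction. Again 34 of the 39 were higher under miR-27a and none lower, while of all 13586 genes tested 6.05% were higher and 959 genes lower. The median log2 difference was 0.77, against -0.00093 for all genes tested, and the range was -0.12 for Pttg1 to 1.22 for Mki67. In 36 of the 39 every miR-27a library lay above every control library, against 14.4% of all genes tested. The summed level was 1796 to 1954 CPM in pulldown control and 3059 to 3293 CPM in pulldown miR-27a libraries. Passing in both fractions were 33 genes, and the share of all tested genes that did so was not counted. Bub3, Ckap5, Tacc3, Pttg1 and Espl1 did not pass in pulldown RNA.

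The levels of other cell types' markers also differed between the mimics. For comparison, 1599 of all 13393 genes tested were lower under miR-27a in whole-cell RNA and 959 of 13586 in pulldown RNA. Astrocyte markers summed to 5822 to 5877 CPM in whole-cell miR-27a libraries, and 5 of 5 were lower there than under control mimic. The 4 mature oligodendrocyte markers summed to 3096 to 3359 CPM, with 3 of 4 lower. In pulldown RNA 4 of 5 astrocyte and 4 of 4 oligodendrocyte markers were lower, and the sums went from 4607 to 4752 CPM down to 3335 to 3637 CPM for astrocytes and from 1083 to 1323 CPM down to 655 to 676 CPM for oligodendrocytes. OPC markers summed to 897 to 934 CPM in whole-cell control and 923 to 964 CPM in whole-cell miR-27a libraries, which overlap, with 3 of 5 higher and 1 lower. In pulldown RNA they summed to 1978 to 2015 CPM under control and 2182 to 2392 CPM under miR-27a mimic, with 2 of 5 higher and none lower. Neuronal markers summed to 194 to 219 CPM in whole-cell miR-27a libraries, where Tubb3 stood at 159 CPM on average against 104 CPM under control, and went from 121 to 131 CPM to 137 to 160.3 CPM in pulldown RNA. In each fraction 1 of the 4 neuronal markers tested was higher and 1 lower. The 1 endothelial marker tested, Kdr, was higher in both fractions (log2 difference 0.54 and 0.63). No microglial marker passed, and 1 mural and fibroblast marker was lower in each fraction. The part of these markers in the rise of the division genes was not tested. In RNA from mixed cells, a different share of dividing cells and a different amount of each mRNA per cell cannot be told apart.

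**Figure D1:**
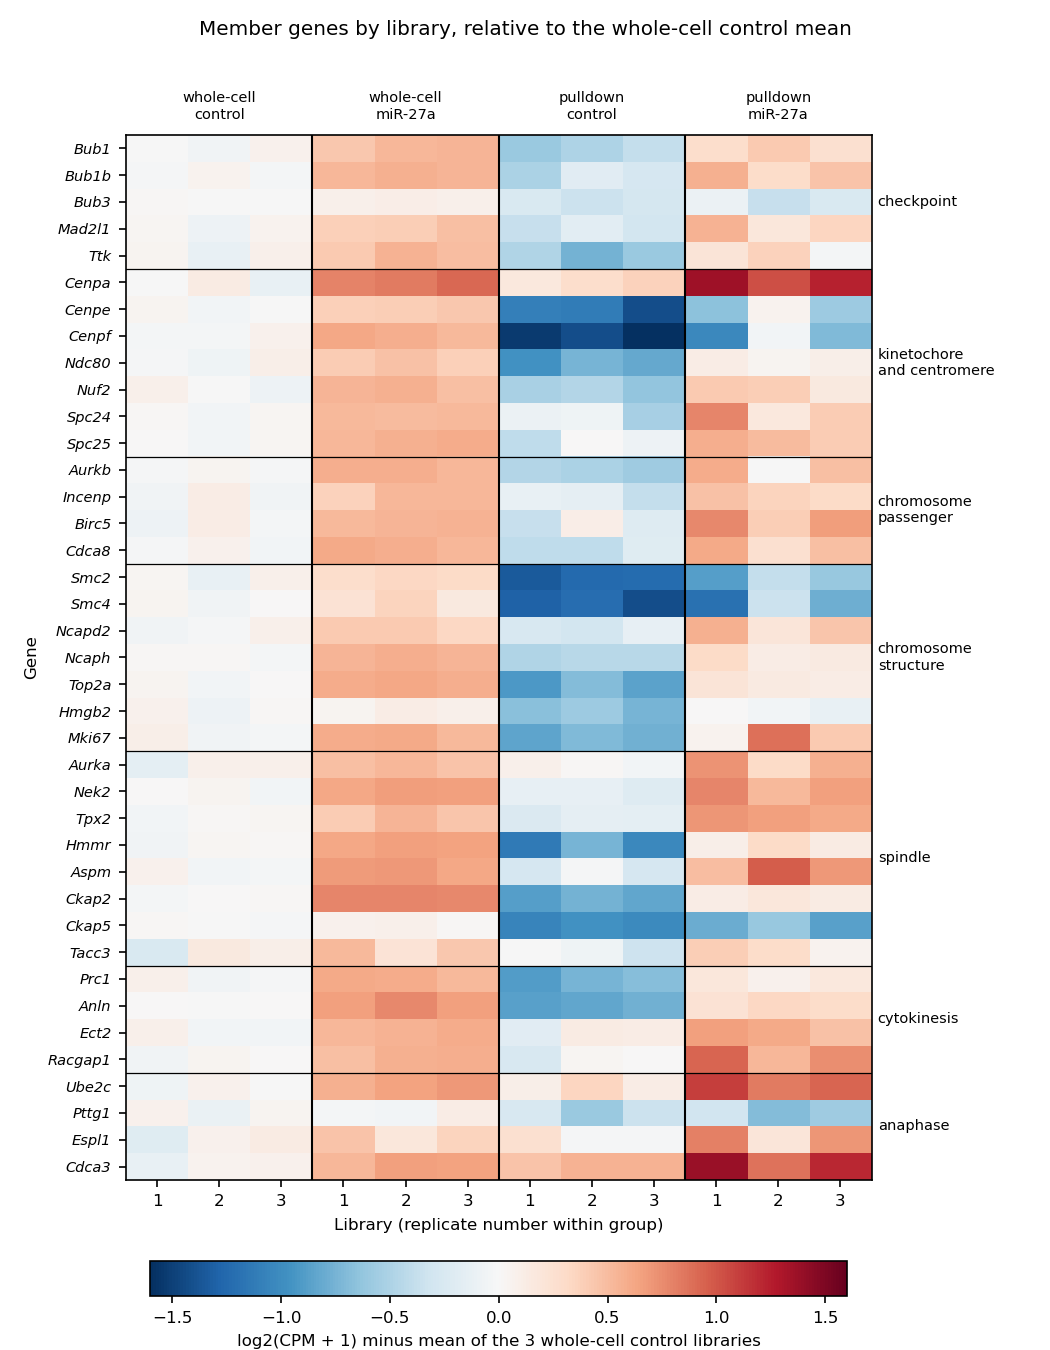
Level of each of the 39 genes (rows, grouped by role) in each of the 12 libraries (columns, by group and replicate number), as log2(CPM + 1) minus the mean of the 3 whole-cell control libraries; red is higher and blue is lower. Whole-cell miR-27a libraries are red for most genes, pulldown control libraries are blue for many, and pulldown miR-27a replicate 2 differs from replicates 1 and 3 at Cenpe, Cenpf, Smc4 and Mki67.

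Means below are in CPM with the SD over 3 libraries. The spindle checkpoint holds anaphase until every chromosome is attached. Ttk, the kinase that starts the signal at unattached kinetochores, rose from 13.5 ± 1.0 to 19.3 ± 1.0 CPM in whole-cell RNA and from 8.51 ± 0.90 to 15.6 ± 2.3 in pulldown RNA. Bub1, a kinase recruited next, rose from 32.5 ± 1.5 to 46.4 ± 2.0 and from 22.8 ± 1.8 to 40.8 ± 2.5. The inhibitors of the anaphase-promoting complex followed the same course. Bub1b (BubR1) rose from 52.6 ± 1.7 to 77.3 ± 0.95 and from 42.2 ± 4.9 to 71.8 ± 6.8 CPM. Mad2l1 (MAD2), which binds the activator Cdc20, rose from 28.9 ± 1.4 to 38.9 ± 1.4 and from 23.8 ± 1.7 to 37.5 ± 4.9 CPM.

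Bub3, the adaptor that carries Bub1 and BubR1 to kinetochores, stood apart from its partners. Its whole-cell levels were 150.1, 148 and 148 CPM in control and 158, 159.7 and 158 CPM in miR-27a libraries. Its pulldown levels were 125, 117 and 122 CPM under control and 139, 115 and 126 CPM under miR-27a mimic. The whole-cell groups did not overlap, with all miR-27a libraries higher by a small margin, and the pulldown groups did. The log2 differences were 0.09 ± 0.04 (SE, adjusted p = 0.0737) in whole-cell RNA and 0.05 ± 0.09 (adjusted p = 0.744) in pulldown RNA by limma. The whole-cell adjusted p ran from 0.0144 to 0.451 over the alternative settings and passed in 3 of 17.

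At the kinetochore and centromere all 7 genes rose in both fractions. Cenpa, the histone H3 variant that marks the centromere (chromosome 5, 30666777 to 30674830, GRCm38), had the largest whole-cell difference on the list. It was at 15.9, 17.5 and 14.5 CPM in whole-cell control and 28.3, 29.0 and 30.9 CPM in whole-cell miR-27a libraries. In pulldown libraries it was at 18.0, 19.6 and 20.9 CPM under control and 42.5, 33.6 and 38.6 CPM under miR-27a mimic. The miR-27a libraries were above the control libraries in both fractions, by 1.84-fold and 1.96-fold on the means, with log2 differences of 0.84 ± 0.08 (adjusted p = 2.08e-08) and 0.93 ± 0.11 (adjusted p = 4.50e-05) by limma.

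The 4 subunits of the Ndc80 complex, which binds spindle microtubules at the outer kinetochore, rose by similar amounts in whole-cell RNA: the log2 difference was 0.42 for Ndc80, 0.53 for Nuf2, 0.52 for Spc24 and 0.56 for Spc25. In pulldown RNA it was 0.93, 0.86, 0.68 and 0.66 in the same order. Spc24, the carrier of an 8mer site, went from 12.2 ± 0.36 to 17.9 ± 0.061 CPM in whole-cell RNA. Its pulldown call was lost without pulldown control replicate 3 (adjusted p = 0.0685) and with no filter on low values (adjusted p = 0.0655, with 3.06e-06 to 0.0685 over the alternatives). Cenpe, a kinesin-like motor that brings chromosomes to the spindle equator, rose from 56.0 ± 1.8 to 74.2 ± 1.2 CPM in whole-cell RNA, a call lost with all 12 libraries in 1 fit (adjusted p = 0.0594, with 1.87e-08 to 0.0594 over the alternatives). In pulldown RNA it was at 25.7, 25.3 and 20.4 CPM in control and 35.2, 58.2 and 37.0 CPM in miR-27a libraries, with replicate 2 far above the others. Cenpf, a large coiled-coil protein of the kinetochore corona, had the same shape, at 37.0, 40.3 and 34.3 against 52.8, 106 and 66.7 CPM in pulldown RNA and 106, 106 and 115 against 168, 163 and 156 CPM in whole-cell RNA. Both pulldown differences passed the test, and without that replicate they were 0.59 for Cenpe and 0.66 for Cenpf in place of 0.81 and 0.94.

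The chromosome passenger complex corrects faulty attachments and later directs cytokinesis, and its 4 genes rose in both fractions. Aurkb, its kinase, rose from 15.3 ± 0.44 to 23.1 ± 0.44 CPM in whole-cell and from 10.4 ± 0.40 to 20.2 ± 4.4 in pulldown RNA. Incenp, the scaffold, rose from 13.0 ± 0.98 to 18.4 ± 1.2 and from 11.1 ± 1.2 to 17.1 ± 0.99 CPM. Of the targeting subunits, Birc5 (survivin) rose from 15.5 ± 1.3 to 23.0 ± 0.31 and from 14.0 ± 2.5 to 24.3 ± 3.2, and Cdca8 (borealin) from 26.2 ± 1.2 to 39.5 ± 1.0 and from 20.6 ± 1.8 to 36.3 ± 4.4 CPM. The 4 whole-cell log2 differences lay between 0.47 and 0.57.

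Among the genes of chromosome structure, 3 of 4 condensin subunits had whole-cell differences below the list's median. Smc2 and Smc4 encode the ATPase pair of condensin, the ring complex that compacts mitotic chromosomes. Their log2 differences were 0.31 ± 0.05 (adjusted p = 2.09e-05) and 0.25 ± 0.05 (adjusted p = 3.75e-04) by limma. The Smc4 call was lost with all 12 libraries in 1 fit (adjusted p = 0.286, with 1.21e-06 to 0.286 over the alternatives). Ncapd2 and Ncaph, subunits of condensin I, stood at 0.39 and 0.56. In pulldown RNA Smc4 was at 44.5, 46.9 and 40.7 CPM in control and 47.6, 86.9 and 64.0 CPM in miR-27a libraries, all 3 of the latter above the former and replicate 2 highest. That log2 difference was 0.54 ± 0.15 (adjusted p = 0.0287) and was 0.32 without replicate 2. The call was lost when any of the pulldown controls, or replicate 3 of pulldown miR-27a, was left out, and with no filter on low values, with adjusted p from 2.06e-06 to 0.130 over the alternatives.

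Top2a, the topoisomerase that untangles sister chromatids (chromosome 11, 98992943 to 99024189), was second in level per length among these genes in whole-cell control RNA. It was at 381, 359 and 370.1 CPM in whole-cell control and 558, 571 and 552 CPM in whole-cell miR-27a libraries, and at 196, 229 and 203 CPM in pulldown control and 427, 407 and 403 CPM in pulldown miR-27a libraries. The groups were well separated in both fractions, with folds of 1.51 and 1.97. The log2 difference was 0.60 ± 0.03 (adjusted p = 5.53e-12) in whole-cell and 0.98 ± 0.08 (adjusted p = 2.63e-06) in pulldown RNA by limma.

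Mki67 encodes Ki-67, which coats mitotic chromosomes and is the standard marker of proliferation (chromosome 7, 135689784 to 135716361). Its whole-cell levels were 245, 221 and 225 CPM in control and 349, 349.7 and 330.1 CPM in miR-27a libraries. Its pulldown levels were 128, 140.3 and 135 CPM under control and 238, 426 and 307 CPM under miR-27a mimic, the largest difference on the list, and the miR-27a libraries were spread over a wide range with replicate 2 highest. The log2 differences were 0.57 ± 0.04 (adjusted p = 2.30e-10) and 1.22 ± 0.14 (adjusted p = 4.92e-05), and the second was 1.01 without pulldown miR-27a replicate 2. Hmgb2, a DNA-bending chromatin protein abundant in dividing cells (chromosome 8, 57511907 to 57515999), differed between the fractions. It was at 65.0, 58.9 and 62.8 CPM in whole-cell control and 64.3, 67.8 and 65.9 CPM in whole-cell miR-27a libraries, which overlap (log2 difference 0.08 ± 0.05, adjusted p = 0.23 by limma). In the pulldown it was at 38.6, 41.1 and 36.8 CPM under control and 62.4, 60.2 and 57.1 CPM under miR-27a mimic, without overlap (log2 difference 0.61 ± 0.09, adjusted p = 2.93e-04).

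**Figure D2:**
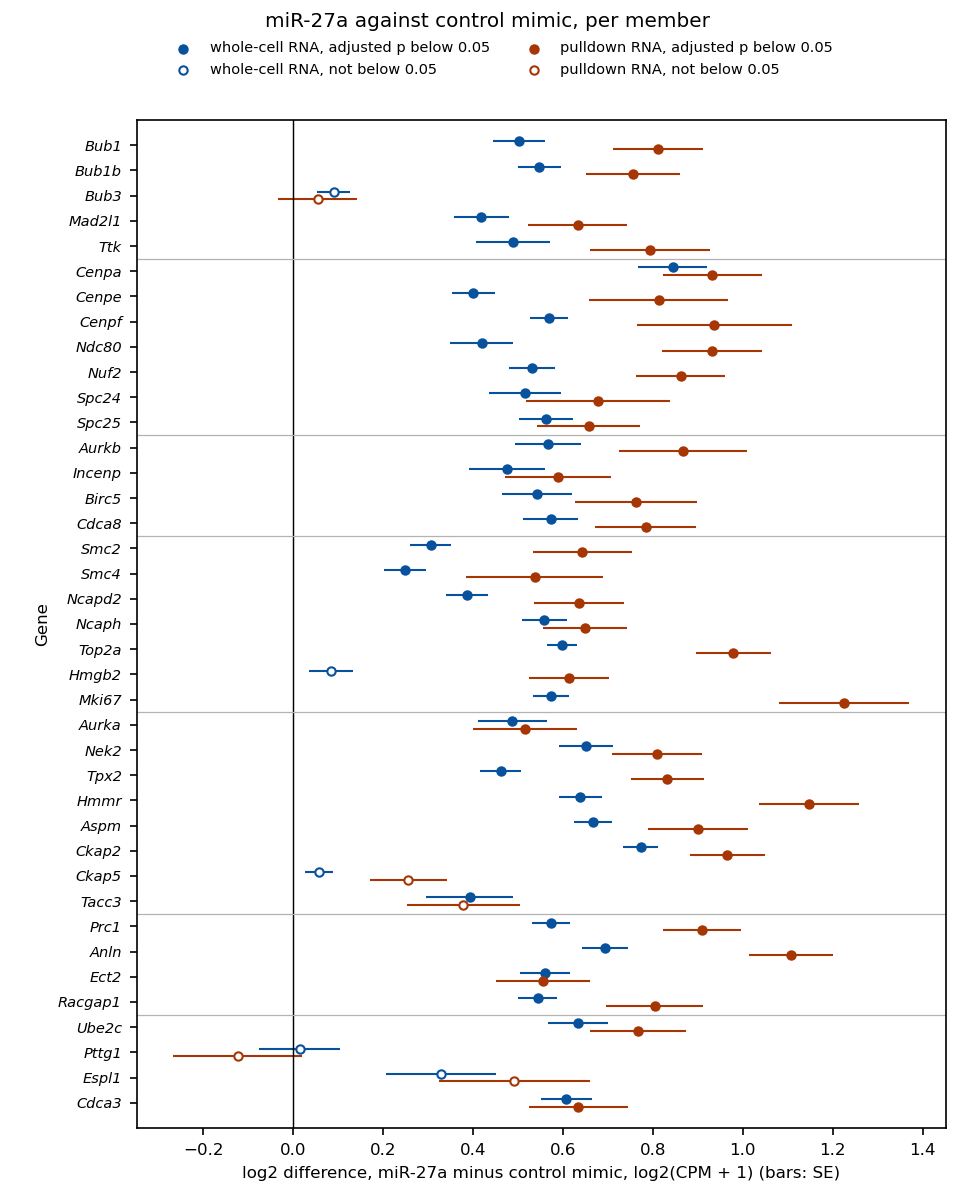
log2 difference between miR-27a and control mimic (x axis, log2(CPM + 1) scale) for each of the 39 genes (y axis, grouped by role), in whole-cell RNA (blue) and pulldown RNA (orange); bars are SE and filled points have an adjusted p below 0.05 by limma. Most whole-cell points lie near their median of 0.54, pulldown points reach 1.22 at Mki67, and Pttg1, Bub3 and Ckap5 lie nearest 0.

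Of the 8 spindle genes, 7 rose in whole-cell and 6 in pulldown RNA. Aurka, the kinase of spindle poles, rose from 18.5 ± 1.8 to 26.2 ± 0.67 CPM in whole-cell RNA and from 18.6 ± 0.83 to 27.3 ± 4.0 in pulldown RNA. Tpx2, its activator, rose from 74.1 ± 2.0 to 102 ± 5.2 and from 65.4 ± 2.3 to 117 ± 4.2 CPM. Nek2, a kinase that lets centrosomes part, rose from 25.5 ± 0.82 to 40.7 ± 0.71 and from 22.8 ± 0.72 to 40.9 ± 3.9 CPM. Aspm, a spindle pole protein whose loss causes microcephaly in humans, rose from 92.7 ± 4.3 to 148 ± 4.1 and from 81.6 ± 8.3 to 154 ± 25.7 CPM.

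Ckap2, a microtubule-stabilising spindle protein, had the second largest whole-cell difference. It was at 87.3, 89.9 and 90.4 CPM in control and 153, 153 and 153 CPM in miR-27a libraries, a 1.72-fold difference (log2 0.77 ± 0.04, adjusted p = 1.19e-12 by limma). Within each group the Ckap2 values were close together and the groups were far apart. Hmmr, a microtubule-binding protein of spindle poles, had the second largest pulldown difference. It was at 21.6, 28.5 and 23.2 CPM in pulldown control and 51.8, 60.1 and 53.2 CPM in pulldown miR-27a libraries, a 2.25-fold difference (log2 1.15 ± 0.11, adjusted p = 9.04e-06), and at 46.4, 49.6 and 49.1 CPM in whole-cell control and 74.8, 76.8 and 75.8 CPM in whole-cell miR-27a libraries.

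Ckap5 (chTOG), a microtubule polymerase that also works outside mitosis, had the highest level per length on the list in 3 of 4 groups, Top2a being above it in pulldown RNA under miR-27a. In whole-cell RNA under miR-27a the pair stood at 62.7 and 62.2 CPM per kb, within the spread of their libraries. Its whole-cell levels were 578, 567 and 565 CPM in control and 597, 605 and 577 CPM in miR-27a libraries, and its pulldown levels were 273, 291 and 281 CPM under control and 328, 373 and 312 CPM under miR-27a mimic. Its whole-cell groups overlapped, the highest control library being just above the lowest miR-27a library, with a log2 difference of 0.06 ± 0.03 (adjusted p = 0.192). In pulldown RNA the groups did not overlap, yet the difference of 0.26 ± 0.09 had an adjusted p = 0.0615 by limma. Tacc3, which acts with Ckap5 on kinetochore fibres, rose from 15.9 ± 2.4 to 21.1 ± 2.3 CPM in whole-cell RNA. In pulldown RNA it was at 14.4 ± 1.8 and 19.0 ± 2.3 CPM (adjusted p = 0.0602). With the replicate number as a block, Ckap5 (adjusted p = 0.010 by limma) and Tacc3 (0.0147) passed in pulldown RNA, as did Espl1 (0.0256), so that 37 genes were higher. The block takes up deviations shared by same-numbered pulldown libraries, which the labels do not call paired. With it 1274 of all 13586 tested genes were higher, in place of 822. Over all alternatives the adjusted p ran from 0.00546 to 0.217 for Ckap5, from 0.00879 to 0.266 for Tacc3 and from 4.81e-05 to 0.239 for Espl1.

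The 4 cytokinesis genes rose in both fractions. Prc1, which bundles the microtubules of the central spindle, rose from 115 ± 5.9 to 172 ± 5.4 CPM in whole-cell RNA and from 67.3 ± 5.1 to 127 ± 5.8 in pulldown RNA. Ect2, the exchange factor that switches on RhoA for furrowing, rose from 33.3 ± 1.7 to 49.6 ± 1.1 and from 34.0 ± 4.0 to 50.3 ± 3.4 CPM. Racgap1, a subunit of centralspindlin that recruits Ect2, rose from 78.7 ± 2.7 to 115 ± 4.4 and from 75.1 ± 8.0 to 132 ± 18.2 CPM. Anln encodes anillin, the scaffold of the contractile ring (chromosome 9, 22332012 to 22389188). It is also expressed by myelinating oligodendrocytes, where it holds septins in myelin. Its whole-cell levels were 40.2, 39.8 and 40.2 CPM in control and 63.8, 68.8 and 63.7 CPM in miR-27a libraries, and its pulldown levels were 21.5, 22.0 and 23.1 CPM under control and 47.1, 50.8 and 49.2 CPM under miR-27a mimic. Neither pair of groups overlapped, and the log2 differences were 0.69 ± 0.05 (adjusted p = 8.43e-10) and 1.11 ± 0.09 (adjusted p = 2.49e-06) by limma. Of the 4 mature oligodendrocyte markers named above, 3 were lower in whole-cell and 4 in pulldown RNA. Which cells gave the Anln rise was not tested.

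The genes around anaphase were split. Ube2c, the conjugating enzyme that works with the anaphase-promoting complex, rose from 20.6 ± 0.95 to 32.6 ± 1.5 CPM in whole-cell RNA and from 23.7 ± 2.4 to 41.0 ± 4.1 in pulldown RNA. Cdca3, a factor of mitotic entry that is destroyed at mitotic exit, rose from 43.5 ± 3.1 to 66.8 ± 3.2 and from 62.8 ± 2.6 to 98.9 ± 17.2 CPM. Pttg1 and Espl1 encode securin and separase, the inhibitor and the protease whose release cuts cohesin at anaphase, and neither passed the test. Securin was at 13.0, 11.4 and 12.7 CPM in whole-cell control and 12.1, 11.96 and 13.5 CPM in whole-cell miR-27a libraries, and at 10.2, 7.87 and 9.56 CPM in pulldown control and 9.86, 7.25 and 8.05 CPM in pulldown miR-27a libraries. Both pairs of groups overlapped, and the Pttg1 log2 differences were 0.01 ± 0.09 (adjusted p = 0.925) and -0.12 ± 0.14 (adjusted p = 0.638). Espl1, the lowest of the list per length, was at 3.95, 4.97 and 5.21 CPM in whole-cell control and 6.79, 5.45 and 6.25 CPM in whole-cell miR-27a libraries, and at 5.81, 4.59 and 4.63 CPM in pulldown control and 8.90, 5.49 and 8.29 CPM in pulldown miR-27a libraries. Its miR-27a libraries were above its control libraries except in pulldown replicate 2, and its log2 differences of 0.33 ± 0.12 (adjusted p = 0.0518) and 0.49 ± 0.17 (adjusted p = 0.0673) were close to the threshold. The whole-cell adjusted p of Espl1 by limma ran from 0.0407 to 0.207 over the alternatives and passed in 7 of 17. The pulldown difference passed in 5 of 17.

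Levels between genes were compared per length, as CPM per kilobase of annotated exons in whole-cell control RNA. Ckap5 was highest at 60.2 ± 0.76 CPM per kb, followed by Top2a at 41.1 ± 1.3, Ckap2 at 27.7 ± 0.52 and Smc2 at 25.3 ± 1.9. The median of the 39 was 7.94 CPM per kb. Lowest were Ttk at 2.75 ± 0.21, Cenpa at 2.73 ± 0.25 and Espl1 at 0.538 ± 0.076, the first pair of which do not differ beyond their SD. Partners in a complex differed in level: the Smc2 and Smc4 ATPases were at 25.3 ± 1.9 and 21.2 ± 0.78, while Ncapd2 and Ncaph were at 12.4 ± 0.61 and 9.26 ± 0.20. Within the Ndc80 complex the levels ran from 3.12 ± 0.20 for Ndc80 to 8.37 ± 0.23 for Spc25.

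Pulldown RNA was then set against whole-cell RNA under each mimic, from a fit of all 12 libraries in which the 4 groups share an estimate of the spread. Under control mimic, most division genes were less abundant in the pulldown: 25 of 39 were lower, against 30.3% of all 13875 genes tested, and 2 were higher, against 31.7%. The median log2 difference was -0.34, pulldown minus whole-cell, against 0.02 for all genes tested. Under miR-27a mimic 17 were lower, against 30.9% of all genes, and 4 were higher, against 29.3%, with a median of -0.14 against -0.01.

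Cenpf had the lowest ratio, at 106, 106 and 115 CPM in whole-cell and 37.0, 40.3 and 34.3 CPM in pulldown control libraries. Its log2 difference was -1.53 ± 0.15 under control mimic (adjusted p = 9.37e-08 by limma) and -1.16 ± 0.15 under miR-27a (adjusted p = 2.71e-06). Smc4 came next, at 114, 106 and 112 CPM in whole-cell and 44.5, 46.9 and 40.7 CPM in pulldown control libraries and 130.3, 142 and 123 CPM in whole-cell miR-27a libraries, with log2 differences of -1.31 ± 0.13 and -1.02 ± 0.13. In both genes the pulldown control libraries were far below every whole-cell library.

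A few genes ran the other way. Cdca3 was at 40.0, 45.1 and 45.6 CPM in whole-cell and 59.8, 64.2 and 64.3 CPM in pulldown control libraries, and at 63.1, 69.1 and 68.3 CPM in whole-cell and 114, 80.4 and 102 CPM in pulldown miR-27a libraries. It was higher in the pulldown under both mimics without overlap, by 0.52 ± 0.10 (adjusted p = 1.28e-04) and 0.55 ± 0.10 (adjusted p = 8.28e-05) by limma. Cenpa was higher as well, by 0.27 ± 0.10 under control mimic (adjusted p = 0.0185) and 0.36 ± 0.10 under miR-27a (adjusted p = 0.00307). The first of these did not hold when replicate 3 of whole-cell control (adjusted p = 0.0978) or of pulldown control (0.0800) was left out, in a range of 0.00209 to 0.0978 over the alternatives. Under miR-27a mimic Ube2c (0.32 ± 0.09, adjusted p = 0.00424) and Tpx2 (0.19 ± 0.06, adjusted p = 0.0107) were higher too. Tpx2 was lower in the pulldown under control mimic (-0.18 ± 0.06, adjusted p = 0.0163), and with scaling by library totals that value was -0.09 (adjusted p = 0.215, in a range of 0.00402 to 0.215 over the alternatives). The Tpx2 calls were also lost, under control mimic, without replicate 3 of whole-cell control or replicate 1 of pulldown control, and without whole-cell miR-27a replicate 1 under miR-27a.

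The difference between pulldown and whole-cell RNA followed base composition across the list. Spearman's rho between the log2 difference under control mimic and the GC content of the longest annotated transcript was 0.59 over the 39 genes and 0.31 over 12393 tested genes with an annotation, as a description across genes, which share their libraries. Under miR-27a mimic it was 0.51 and 0.19. Of the 18 division genes below 45% GC, 15 were lower in the pulldown under control mimic and none higher, with a median of -0.80, against 1570 lower and 589 higher of 3250 tested genes of that class (median -0.22). Of the 21 at or above 45%, 10 were lower and 2 higher, with a median of -0.21, against 2254 lower and 3339 higher of 9143 (median 0.09). The part of base composition in the pulldown differences was not tested beyond an adjustment, chosen after the data were seen, that removes the median of each GC class in each library. After it, 27 of 39 were lower and 3 higher under control mimic, with a median of -0.33. Of 12393 tested genes 3907 were lower and 4040 higher, with a median of 0.01. Hmgb2, at 38.7% GC the most AT-rich of the 39, moved from -0.67 to -0.30.

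**Figure D3:**
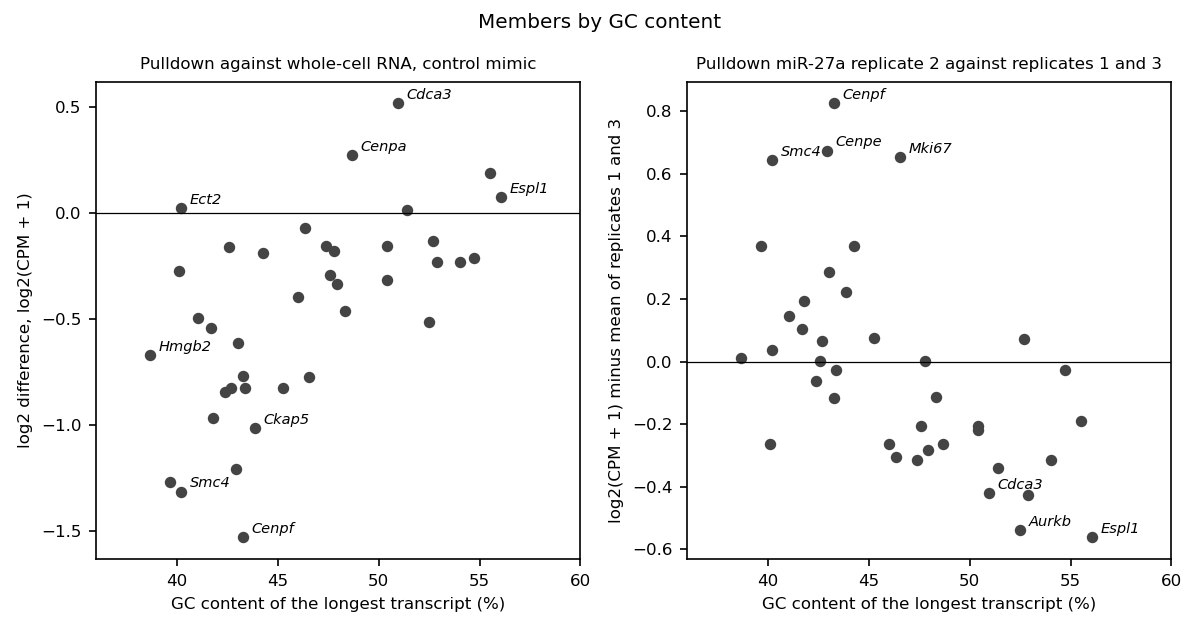
The 39 genes (points) by GC content of the longest annotated transcript (x axis, percent). Left, log2 difference between pulldown and whole-cell RNA under control mimic, where rho is 0.59; right, deviation of pulldown miR-27a replicate 2 from the mean of replicates 1 and 3 on the log2(CPM + 1) scale, where rho is -0.62.

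A gene is called enriched here where its pulldown-to-whole-cell difference was larger under miR-27a than under control mimic, tested as an interaction over all 12 libraries. Of the 39 genes, 5 were enriched in this sense and none depleted, while of 13875 genes tested 0.339% were enriched and 102 genes depleted. The median was 0.22, against -0.01 for all genes tested, and 35 of the 39 values were above 0. The 5 were Hmgb2, Ndc80, Anln, Top2a and Tpx2.

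Hmgb2 had the smallest adjusted p. With whole-cell groups at 62.3 ± 3.1 and 66.0 ± 1.8 CPM and pulldown groups at 38.8 ± 2.2 and 59.9 ± 2.7 CPM, its enrichment was 0.53 ± 0.09 (log2, SE, adjusted p = 0.00927 by limma). The whole-cell groups overlapped, and the pulldown miR-27a libraries were above all 3 pulldown control libraries. This call was kept in 21 of 22 alternatives and lost after GC adjustment (0.40, adjusted p = 0.0606, in a range of 3.90e-05 to 0.0606).

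Ndc80 (chromosome 17, 71496100 to 71526857) was at 19.9, 19.2 and 21.7 CPM in whole-cell control, 27.2, 28.3 and 26.7 in whole-cell miR-27a, 9.89, 11.7 and 11.01 in pulldown control and 22.1, 20.9 and 21.7 CPM in pulldown miR-27a libraries. Its level went up in both fractions and by more in the pulldown, where the groups differed 1.99-fold against 1.35-fold. The enrichment was 0.51 ± 0.12 (adjusted p = 0.0472 by limma), and among the 9 genes with a miR-27a site it was the only one enriched. The other 3 were close in size, 0.41 ± 0.09 for Anln (adjusted p = 0.0392), 0.38 ± 0.09 for Top2a (adjusted p = 0.0389) and 0.37 ± 0.09 for Tpx2 (adjusted p = 0.043). Tpx2 (chromosome 2, 152847964 to 152895321) was at 71.8, 74.7 and 75.6 CPM in whole-cell control, 98.3, 108 and 101 in whole-cell miR-27a, 62.8, 67.2 and 66.1 in pulldown control and 121, 117 and 113 CPM in pulldown miR-27a libraries. It was the only one of the 5 whose pulldown miR-27a libraries were above all whole-cell miR-27a libraries.

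The largest enrichment value belonged to Mki67, at 0.65 ± 0.18, which did not pass (adjusted p = 0.0866). It passed without pulldown miR-27a replicate 2, at a smaller value of 0.43 (adjusted p = 0.00904, in a range of 6.28e-06 to 0.246 over the alternatives). The lowest values were those of Pttg1, at -0.14 ± 0.17 (adjusted p = 0.78), and Bub3, at -0.04 ± 0.09 (adjusted p = 0.919). The calls beside Hmgb2 lay near the threshold: 1 gene was left when any of the 6 whole-cell libraries, replicate 1 or 3 of pulldown control or replicate 3 of pulldown miR-27a was left out, and 10 and 11 passed without replicates 1 and 2 of pulldown miR-27a, where 157 and 159 of all tested genes passed in place of 47. Array weights, which give less weight to libraries with more scatter, gave 16, among 688 of 13875 genes, though the estimate of the weights stopped before it converged.

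**Figure D4:**
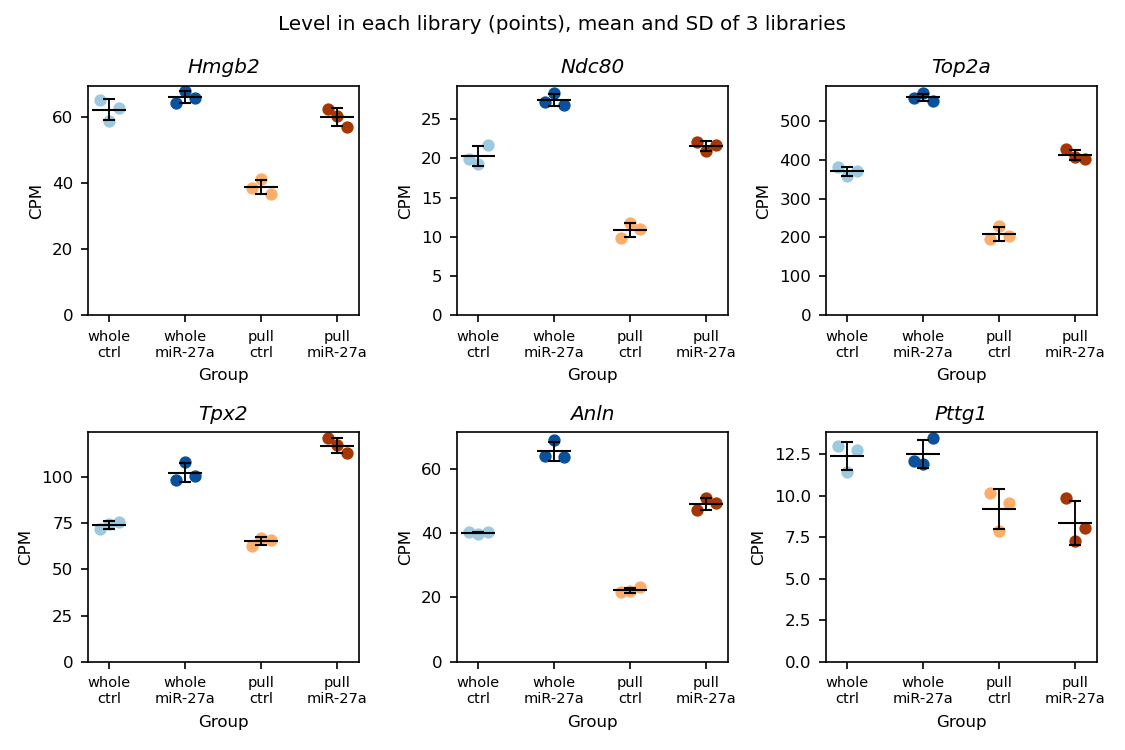
Level in CPM (y axis, from 0) of the 5 enriched genes and of Pttg1, the gene with the lowest enrichment value, in the 4 groups (x axis; whole, whole-cell RNA; pull, pulldown RNA; ctrl, control mimic). Points are libraries, and lines and bars are the mean and SD of 3; for the 5 enriched genes the step from control to miR-27a is larger in pulldown than in whole-cell RNA on the log2 scale, and for Pttg1 the groups of each fraction overlap.

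Enrichment also varied with base composition and length. Spearman's rho between the enrichment value and GC content was -0.48 over the 39 genes, against -0.32 over 12393 genes. With transcript length it was 0.48 over the 39 genes, and with the length of annotated exons it was 0.11 over the 12393 genes. The median enrichment was 0.32 for the 18 genes below 45% GC and 0.16 for the 21 at or above it, against 0.06 and -0.04 for all tested genes of those classes. After GC adjustment 5 genes of the list were enriched, with a median of 0.20 over the list. Of all tested genes 99 of 12393 were then enriched, in place of 47 of 13875. The 5 were not the same genes: Mki67 entered at 0.61 (adjusted p = 0.0322 by limma) and Ndc80 missed at 0.45 (adjusted p = 0.0594), as did Hmgb2.

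Part of the scatter among pulldown miR-27a libraries followed the same axis. The deviation of replicate 2 from replicates 1 and 3 had a rho of -0.62 with GC content over the list and -0.58 over all genes. It ran from -0.56 for Espl1 to 0.83 for Cenpf, with Cenpe at 0.67, Mki67 at 0.65 and Smc4 at 0.64. Without that library 36 of the 39 genes were higher under miR-27a in pulldown RNA, with a median of 0.77. Calls rose over all genes too, to 1267 higher of 13486 tested, in place of 822 of 13586.

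Division genes rose with and without miR-27a sites. All 9 genes with a site rose in both fractions, with median log2 differences of 0.52 in whole-cell and 0.68 in pulldown RNA, and of the 30 without a site, 25 rose in each, with medians of 0.55 and 0.79. Spc24 and Ncapd2, the carriers of the 8mer printed above, were at 0.52 and 0.39 in whole-cell RNA and 0.16 and 0.25 in enrichment (adjusted p = 0.775 and 0.362 by limma). Over all genes tested in whole-cell RNA, 708 of 3737 with a site were lower and 413 higher, while 711 of 7647 without one were lower and 1133 higher.

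Promoters were searched in windows from 250 bases before to 50 bases after the annotated start, from RefSeq (GRCm38.p6), for the CHR written as TTTGAA or TTCGAA and for the CCAAT box, on both strands. Windows were found for 34 of the 39 genes and not for Spc24, Aurkb, Incenp, Smc4 and Tpx2. A CHR was found in 76.5% of the 34 genes, a CCAAT box in 76.5% and both in 70.6%, or 24 genes, counting any window of a gene. Of 9605 tested genes with a window, 15.8%, 43.6% and 6.65% did, and of all 32851 windows 19.2%, 37.4% and 7.52%. In the windows of the list 1 pair of these motifs overlapped. The 150 bases before the start are shown for Top2a (chr11:99024190-99024339, minus strand), which rose in both fractions, and for Ckap5 (chr2:91526612-91526761, plus strand) and Hmgb2 (chr8:57511693-57511842, plus strand), which did not pass in whole-cell RNA. Capitals mark the motifs on either strand.
Top2a: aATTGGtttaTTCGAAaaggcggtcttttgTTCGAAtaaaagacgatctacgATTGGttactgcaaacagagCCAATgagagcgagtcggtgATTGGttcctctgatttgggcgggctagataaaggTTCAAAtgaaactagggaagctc
Ckap5: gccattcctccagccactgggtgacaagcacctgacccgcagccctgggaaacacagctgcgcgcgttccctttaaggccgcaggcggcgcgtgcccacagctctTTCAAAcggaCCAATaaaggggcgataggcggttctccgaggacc
Hmgb2: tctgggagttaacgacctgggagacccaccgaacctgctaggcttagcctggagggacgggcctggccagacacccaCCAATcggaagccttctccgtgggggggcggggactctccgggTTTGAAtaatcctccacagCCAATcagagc
Top2a held 7 motifs in these bases, Ckap5 2 and Hmgb2 3, so genes with and without a whole-cell call carried both kinds. Of the 24 genes with both motifs 20 rose in whole-cell RNA, with a median of 0.56, and of the 10 with a window but not both 9 rose, with a median of 0.48. Pttg1 held neither motif in its window, and Bub3 and Espl1 held both.

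The rest of the mitotic machinery was counted from lists drawn up by function, also with earlier results known, and without a test against the 39. Their counts stand against 13.0% of all tested genes higher in whole-cell and 6.05% in pulldown RNA. Lower were 1599 of 13393 and 959 of 13586 genes. Of 36 remaining kinetochore genes, 21 rose and 1 fell in whole-cell RNA (median 0.28), led by Casc5, the KNL1 scaffold of the outer kinetochore, at 0.65 ± 0.06 and Kntc1, which recruits dynein to kinetochores, at 0.58 ± 0.06 (SE, adjusted p = 5.73e-08 and 8.20e-08 by limma). In pulldown RNA 16 were higher and 1 lower (median 0.44), with Sgol2, a shugoshin that protects centromeric cohesin, at 0.89 ± 0.11 (adjusted p = 9.53e-05). All 4 remaining condensin genes rose in whole-cell RNA (median 0.24), among them Ncapg of condensin I at 0.48 ± 0.05 and Ncapg2 of condensin II at 0.34 ± 0.05, and 2 of 4 in pulldown RNA (median 0.50).

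Of 31 remaining spindle and centriole genes 14 rose in whole-cell RNA and 12 in pulldown RNA, and none fell in either (medians 0.16 and 0.26). Nusap1, a microtubule-bundling protein, was at 0.52 ± 0.05 in whole-cell RNA and Dlgap5, which stabilises kinetochore fibres, at 0.93 ± 0.09 in pulldown RNA. Of 20 genes of mitotic entry and MuvB, 9 rose in whole-cell and 8 in pulldown RNA with no fall (medians 0.20 and 0.30). Ccnb1, the cyclin of mitotic entry, led in both fractions, rising on average from 52.4 to 164 CPM in whole-cell RNA and from 60.3 to 189.5 CPM in pulldown RNA, log2 differences of 1.62 ± 0.04 and 1.63 ± 0.10 (adjusted p = 1.48e-17 and 8.66e-08 by limma). Ccna2, the cyclin of S phase and G2, rose from 116 to 169.7 CPM in whole-cell RNA, and Ccnb2, a second B-type cyclin, from 26.4 to 52.5 CPM in pulldown RNA. Of 10 tested cytokinesis genes 2 rose in each fraction, Cep55 of abscission at 0.57 ± 0.07 and the myosin heavy chain Myh10 at 0.11 ± 0.03 in whole-cell RNA.

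The complexes that hold and release sister chromatids had medians near 0 in whole-cell RNA. Of 13 cohesin genes 4 rose and 1 fell in whole-cell RNA (median 0.03), and 3 rose in pulldown RNA (median 0.14). The rises included Esco2, the acetyltransferase that establishes cohesion in S phase, at 0.56 ± 0.07 and Cdca5, the cohesion protector sororin, at 0.66 ± 0.11. Of 18 genes of the anaphase-promoting complex and its regulators, 4 rose and 1 fell in whole-cell RNA and 2 rose and 1 fell in pulldown RNA (medians -0.0037 and -0.01). Cdc20, its mitotic activator and the target of the checkpoint, was the strongest of these at 0.83 ± 0.06 in whole-cell RNA and 0.97 ± 0.11 in pulldown RNA (adjusted p = 1.19e-09 and 2.98e-05 by limma).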

How the data were processed

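The files give 1 value per gene and library. A stranded total RNA kit with ribosomal depletion was used, per the series' design text. Per the same text the authors trimmed reads with skewer, used HISAT2 and SAMtools for alignment to GRCm38, featureCounts (Subread) for counts per gene, and edgeR for normalisation. No versions are stated there, and mm8 is listed beside GRCm38 in the submitters' processing notes. The authors deposited log2 CPM with a prior of 0.25 reads and normalisation factors that came out at 0.961 to 1.055. Subtracting the value of 0 reads recovered CPM and whole reads, with 100% of values up to 5000 reads whole within 0.01 reads. A gene without reads had at most 0.116 to 0.200 CPM, the CPM of 3 reads, for counting error only.

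Values of log2(CPM + 1), a scale that understates changes of low genes, were tested two-sided with limma 3.58.1 (R 4.3.3) and its trend option. A gene was tested if 3 or more libraries of the fit held 1 CPM or more. The fits were checked on simulated data with independent counts and the same low spread setting for every gene and library. That check does not cover the wider, GC-linked scatter among pulldown miR-27a libraries. Mimics were compared within 6 libraries; other contrasts used all 12. Alternatives were the pseudocount, the filter, the scaling, limma voom on recovered reads, array weights, a replicate block, a fit of all 12 libraries, GC adjustment (added after the data were seen) and each library left out. For the mimics in pulldown RNA, GC adjustment was run only together with the replicate block. Same-numbered pulldown libraries deviated together from their group means (r = 0.13, 0.27 and 0.11 across genes), and same-numbered whole-cell libraries did not. Across fractions, libraries of unlike number reached similar values, as whole-cell control 1 with pulldown control 2 (0.13) and with pulldown miR-27a 2 (0.22). The labels do not say that the numbers mark a pairing. A fit with the number as a block is given beside pulldown results whose call it changes. The counts reported come from fits without the block. The 39 genes, the other lists and the tests were chosen with earlier results of these data known. In each comparison the 2 largest and 2 smallest differences were described in full, every enriched gene was named, and other lists gave up to 2 genes by smallest p. In those lists 8 symbols matched through an older symbol and 5 septins were not matched. One further marker of mature oligodendrocytes is not reported here. Transcript length, GC content and sites came from GENCODE M21. Python 3.11.15, pandas 2.3.3, numpy 2.4.6, scipy 1.17.1 and matplotlib 3.10.9 were used.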

Additional observations from a re-analysis of the deposited data

Results flagged for a closer look

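In 5 genes the difference between the mimics was not the same in pulldown and whole-cell RNA by the interaction test of limma over all 12 libraries. The extra log2 difference in pulldown RNA was 0.53 for Hmgb2, 0.51 for Ndc80, 0.41 for Anln, 0.38 for Top2a and 0.37 for Tpx2. Whole-cell and pulldown miR-27a libraries were each above their controls in 3 of 3 libraries for Ndc80, Anln, Top2a and Tpx2, and pulldown libraries alone for Hmgb2. The Hmgb2 call was lost in 1 of 22 alternatives, that of Ndc80 in 13, that of Top2a in 10 and those of Tpx2 and Anln in 11 each. Enrichment values of the list had a rho of -0.48 with GC content, and the part of base composition in them was not tested beyond the GC adjustment.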

How the results depend on the processing

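Over 17 alternatives, the genes higher under miR-27a numbered 32 to 37 in whole-cell RNA and 32 to 37 in pulldown RNA, and none was lower. Leaving out 1 library gave 34 to 35 and 32 to 36. The higher genes among all tested moved more, from 760 to 2062 in whole-cell and 474 to 2404 in pulldown RNA over the alternatives. With 1 library left out they numbered 1207 to 1791 and 474 to 1267. Over 22 alternatives, the genes that differed between pulldown and whole-cell RNA, in either direction, numbered 23 to 30 with the control mimic and 18 to 28 with miR-27a. Such differences were common: in the main fit with the control mimic, 4392 of all 13875 tested genes were higher in the pulldown and 4209 lower. With miR-27a 4064 were higher and 4286 lower. The count of enriched genes depended on the setting: it was 3 with a pseudocount of 4 CPM, 2 with no filter on low values, 16 with array weights, and 1 to 11 when 1 library was left out. Among all tested genes the counts were 64, 30, 688 and 21 to 159 in the same order. The cause was not tested. Values near 0 changed sign. Pttg1 in whole-cell RNA was -0.0034 with median-of-ratios scaling and ran from -0.038 (no replicate 2 of the control) to 0.048 as single libraries were left out, with -0.036 when replicate 3 of miR-27a was. Bub3 ran from -0.016 to 0.12 in pulldown RNA without replicate 1 or 2 of pulldown miR-27a, and its enrichment from -0.11 to 0.033. Hmgb2 between pulldown and whole-cell RNA under miR-27a was 0.099 after GC adjustment, in place of -0.14. The whole-cell calls of Cenpe and Smc4 were lost with all 12 libraries in 1 fit (adjusted p = 0.0594 and 0.286). With the replicate block the counts were 34 in whole-cell and 37 in pulldown RNA, where 1612 of 13393 and 1274 of 13586 tested genes were higher. For enrichment the count was 5, and Ndc80 was lost (adjusted p = 0.0534 by limma). Whole-cell libraries share only a number. Espl1, Pttg1 and Tacc3, at under 25 CPM, were not called in pulldown RNA; Ttk, Spc24 and Incenp, at levels like those of Pttg1 and Tacc3, were, and the part of depth was not tested.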
